A study of Mus musculus with 3 samples.

Results

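The axis of insulin-like growth factor 1 (IGF1) was followed through 10 mouse genes: the hormone gene Igf1, the binding protein genes Igfbp1, Igfbp2, Igfbp3, Igfbp4 and Igfbp5, Igfals for the acid-labile subunit, and the receptor genes Igf1r, Insr and Ghr. Their probes were found by gene name, with no signal used, as every array probe that carries one of these symbols or an older name of it, and the genes are 10 of the 19712 named on the arrays. The names matched 25 probes on 34 of 43379 gene spots, with no probe found through an older name, and 7 of the 10 genes had more than 1 probe. The study set adult liver, fetal liver and bone marrow of C57BL/6 mice side by side, and the labels name no mutant allele, transgene or treatment for any of them. Adult livers were of mice aged 12 weeks, fetal livers were taken on gestation day 13.5, and the labels can be read as giving the marrow donors the same 12 weeks or no age at all. Each tissue was measured on 1 Agilent array of 1 colour, and the labels used here do not say how many animals, or of which sex, went into an RNA sample.

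IGF1 is a growth hormone-dependent hormone that, in the adult, the liver releases into the blood. Growth hormone binds its receptor, encoded by Ghr, and acts through the kinase JAK2 and the transcription factor STAT5 on targets that include Igf1 and Igfals. In plasma most IGF1 is carried in a complex of the hormone, an IGF binding protein (IGFBP3 or IGFBP5) and the acid-labile subunit, the other binding proteins hold it in smaller complexes, and in target cells it acts through the IGF1 receptor, a relative of the insulin receptor. Before birth IGF2 is the more abundant hormone and growth depends little on growth hormone.

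Since there was 1 array for each tissue, no comparison had replicates, no p-value was formed, and all differences describe these 3 RNA samples. Gene spots well above background made up between 52.6% and 58.8% of an array, and no spot was saturated. The marrow array was brighter as a whole, with a 75th percentile of the gene signals of 894.5 against 296.5 for adult liver and 386.0 for fetal liver, so every signal was divided by that percentile of its own array before tissues were compared. Folds below are ratios of these scaled signals of 1 probe, signals are the processed intensities before scaling, and the value after ± is the scanner software's error of the spot on that array. A difference of at least 4-fold was counted as a call. "At least" marks a lower bound, used where 1 of the tissues left the probe dim, that is, not well above background: the divisor is then the probe's own signal there or the dimmest signal that passed as well above background on the array, whichever is higher. Over probes with repeat spots, the median SD of the log2 signal within an array was between 0.052 and 0.068, which measures the array and not the animals. A step between tissues was read as beyond the spot error when it was over 2 errors of the log2 difference. Probe positions are on mouse build mm9, as in the array design, and the exon or UTR under each probe was not analysed here.

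Between fetal and adult liver, 6 of the 10 genes differed at least 4-fold, against 26.2% of the 14186 genes compared (14.1% higher in adult liver and 12.1% higher in fetal liver). Igf1, Igfbp2, Igfbp4, Igfals and Ghr were higher in adult liver, by 6.07-fold to 97.2-fold, and Igf1r was 21.0-fold higher in fetal liver. Igfbp1, Igfbp3, Igfbp5 and Insr lay within 4-fold, though under scaling on the spike-in RNA Igfbp5 was also called higher in fetal liver. The median log2 difference of the 10 genes, fetal minus adult liver, was -2.17, beside 0.06 over all genes.

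Adult liver differed at least 4-fold from marrow at 9 of the 10 genes, against 33.8% of 14245 genes (18.8% higher in adult liver and 15.0% higher in marrow). Igf1, Igfbp1, Igfbp2, Igfbp3, Igfbp4, Igfals and Ghr were higher in adult liver, Igfbp5 and Igf1r were higher in marrow, and Insr lay within 4-fold. Between fetal liver and bone marrow 5 of the 10 were called, against 17.6% of 14677 genes (9.33% higher in fetal liver and 8.30% higher in marrow), and all 5 (Igfbp1, Igfbp2, Igfbp3, Igfals and Ghr) were higher in fetal liver. Median log2 differences of the 10 genes were 4.28 for adult liver minus marrow and 1.16 for fetal liver minus marrow, beside 0.09 and 0.26 over all genes. The 3 comparisons share their arrays, so their counts are not independent of one another.

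Differences to marrow depend on how arrays are scaled. With scaling on the spike-in RNA in place of the 75th percentile, the median gene moved to 0.55 for fetal minus adult liver, to -2.37 for fetal liver minus marrow and to -3.01 for adult liver minus marrow on the log2 scale. Under that scaling 9179 genes were called higher in marrow and 262 higher in fetal liver (1218 and 1370 as reported). For adult liver against marrow, 10514 were then higher in marrow and 770 in adult liver (2139 and 2676 as reported), and between fetal and adult liver 2650 were higher in fetal and 1463 in adult liver (1711 and 2007 as reported). Among the 20 calls of the 10 genes, the direction was turned by it for Igfbp2 between fetal liver and marrow, and for Igfbp3 and Igfbp4 between adult liver and marrow. The members called between fetal liver and marrow were then 6, with 1 higher in fetal liver and 5 in marrow (5 and 0 as reported). Between adult liver and marrow they were 8, with 5 higher in adult liver and 3 in marrow (7 and 2 as reported), and between the livers 7, with 2 higher in fetal and 5 in adult liver (1 and 5 as reported).

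**Figure D1:**
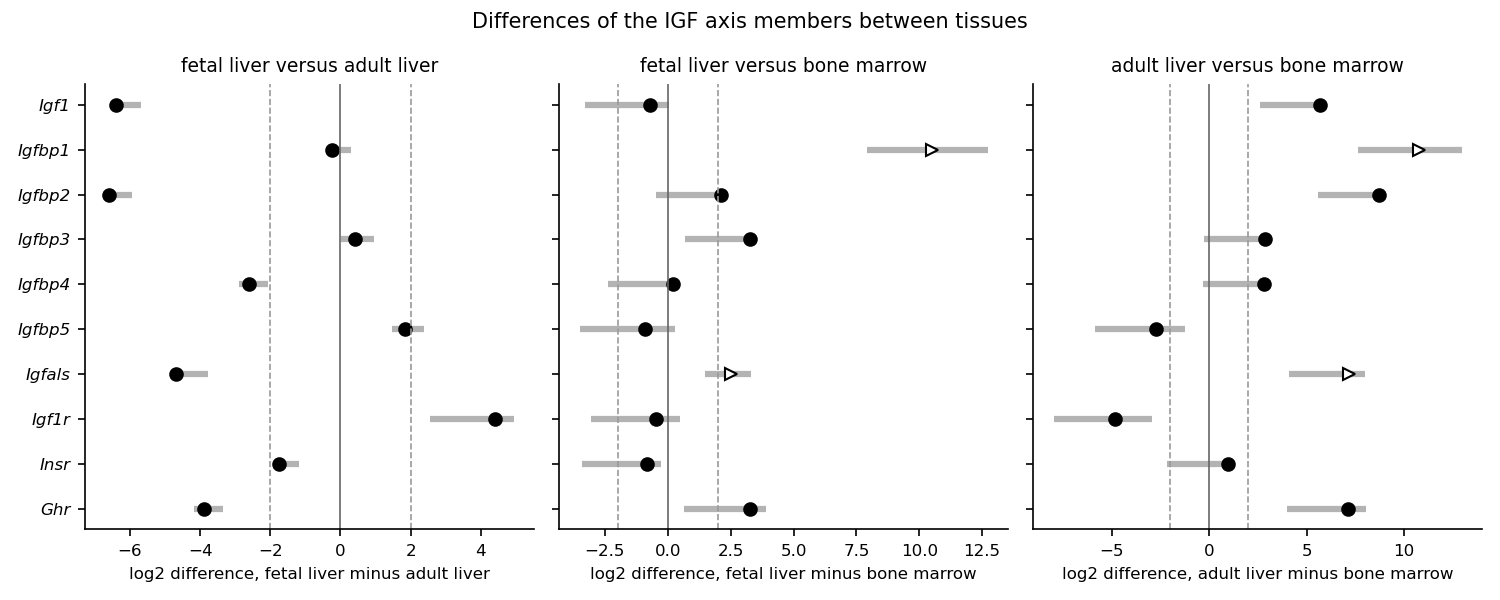
Differences of the 10 IGF axis genes on the log2 scale in the 3 comparisons, with dashed lines at 4-fold, triangles for lower bounds and grey bars for the range over 6 to 8 other ways of processing. The 5 genes called higher in adult than in fetal liver and Igf1r keep their side under all 8, while grey bars cross 0 for Igfbp1 between the livers, for Igfbp2, Igfbp4, Igf1, Igfbp5 and Igf1r between fetal liver and marrow, and for Igfbp3, Igfbp4 and Insr between adult liver and marrow.

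Markers of several cell types also differed between the 3 tissues. Of 10 hepatocyte markers, 10 were well above background in adult liver with a summed scaled signal of 3306 (in multiples of the array's 75th percentile), 9 in fetal liver with 471 (Cps1 was dim), and 4 in marrow with 4.50, where Alb, Ttr, Apoa1, Apob, Serpina1b and Cps1 were dim. The 5 hepatoblast markers, of which Igf2 is one, summed to 0.726 in adult liver, 783 in fetal and 0.904 in marrow, with Dlk1 and Gpc3 dim in adult liver and marrow. Of the erythroid markers, 5 (Epor, Slc4a1, Klf1, Alas2 and Gata1) were well above background in all 3 tissues. They summed to 52.6 in adult liver, 588 in fetal and 404 in marrow. Nearly all of the 52.6 was Alas2, whose levels in the livers lay within 4-fold of each other (2.75-fold, fetal liver on top). For Epor, Slc4a1, Klf1 and Gata1, fetal liver stood 59.1-fold to 1525-fold above adult liver. Neutrophil markers well above background numbered 1 of 6 in adult liver and 6 of 6 in each of the others, with sums of 0.307, 60.4 and 1145. The part of these cell types in the results was not tested, and in bulk tissue fewer cells of a type and less RNA per cell cannot be told apart.

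Ghr, the receptor through which growth hormone acts, gave 11400 ± 1140 in adult liver, 999 ± 100 in fetal and 244 ± 25 in marrow at its probe for transcript variant 1 (chr15:3268107-3268166, minus strand). The order of the tissues was adult liver, fetal liver, marrow, with both steps beyond the spot error. The level was 14.9-fold higher in adult than in fetal liver, 9.49-fold higher in fetal liver than in marrow and 141-fold higher in adult liver than in marrow. Under spike-in scaling the step from fetal liver to marrow was under 4-fold (0.66 on the log2 scale).

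Ghr had 4 further probes, and each of them put the 3 tissues in the same order. In the mouse, alternative splicing of Ghr also gives a short form that encodes the soluble growth hormone binding protein, the form which the second transcript variant stands for. A probe of that variant at chr15:3277988-3278047 gave 14700 ± 1470 in adult liver, 319 ± 32.2 in fetal and 146 ± 15.6 in marrow, and was 60.0-fold higher in adult than in fetal liver. The other probe of the variant, whose ends lie 7453 bases apart in the genome (chr15:3283509-3290961), gave 3110 ± 311, 51.4 ± 6.06 and 32.4 ± 6.00 and was 78.8-fold higher in adult than in fetal liver. At both probes of the second variant the step between the livers was thus several times the step at the probe of the first. A pair of probes named from cDNA clones gave smaller steps between the livers, 3.73-fold and 7.19-fold, and neither was well above background in marrow, for which adult liver was at least 174-fold and at least 46.6-fold higher.

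Igf1, the hormone itself, was measured on 10 repeat spots of 1 probe (chr10:87393516-87393575, plus strand), with a mean signal of 27706 ± 2771 in adult liver, 424 ± 42.6 in fetal and 1603 ± 160 in marrow. The 10 spots ran from 27100 to 28500 in adult liver, from 405 to 448 in fetal and from 1550 to 1660 in marrow. These ranges, before scaling, measure the spread within each array and not between animals. Igf1 was 85.0-fold higher in adult than in fetal liver and 52.2-fold higher in adult liver than in marrow. Marrow was 1.63-fold above fetal liver. On the log2 scale, fetal liver minus marrow was 0.03 when all probes of the gene were averaged and -3.29, past 4-fold, under spike-in scaling.

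The other 3 Igf1 probes kept adult liver on top, and all 4 were past 4-fold against both other tissues. At the probe of the second transcript variant (chr10:87376418-87376477) the signals were 11800 ± 1180 in adult liver, 188 ± 19.2 in fetal and 1360 ± 137 in marrow, and adult liver was 81.7-fold above fetal liver. A further probe (chr10:87396567-87396626), with signals of 1020 ± 102, 41.9 ± 5.56 and 150 ± 16, gave a step of 31.7-fold. The last one, named from a cDNA clone at chr10:87325382-87325441, gave 497 ± 49.9 in adult liver and 20.5 ± 4.12 in fetal liver and was not well above background in marrow. Fetal liver was at least 2.0-fold above marrow there, the reverse of the order at the other 3 probes. Adult liver thus stood above both other tissues at each Igf1 probe, while the order of fetal liver and marrow depended on the probe.

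**Figure D2:**
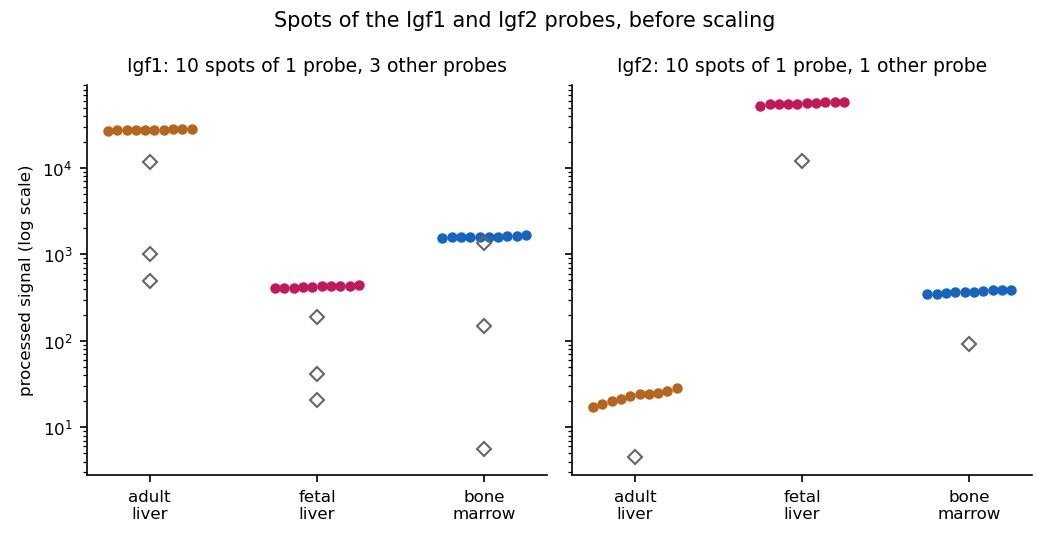
Processed signal before scaling (log axis) of each spot of the Igf1 and Igf2 probes in 3 tissues: filled points are the 10 repeat spots of 1 probe, sorted by signal, and open diamonds are the other probes. Igf1 spots lie between 27100 and 28500 in adult liver and between 405 and 448 in fetal liver, whereas Igf2 is highest in fetal liver.

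Igf2, the fetal hormone of the family, ran the other way. Its 10-spot probe had a mean of 23.2 in adult liver, 56215 in fetal and 375 in marrow, so that fetal liver was 1858-fold above adult liver and 348-fold above marrow. The adult spots, from 17.3 to 28.4, lay around the dimmest signal that passed as well above background there (18.9). The log2 difference from adult liver was 10.86 as reported and 9.06 with the normexp correction, and that from marrow was 8.44 as reported and 5.86 under spike-in scaling.

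Igfals encodes the acid-labile subunit, which joins the complex of IGF1 and its binding protein in plasma. Its 1 probe (chr17:25018251-25018310, plus strand) gave 1150 ± 115 in adult liver and 57.8 ± 6.53 in fetal liver. Marrow gave 13.4 ± 4.96, where the probe was not well above background. Adult liver was 25.9-fold above fetal liver and at least 146-fold above marrow. Fetal liver was at least 5.65-fold above marrow, a bound that came to less than 4-fold with the normexp background correction or with the values of the authors' table.

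Because growth hormone acts on Igfals through STAT5, the RefSeq sequences before its start sites (build GRCm38.p6, plus strand) were searched for the STAT5 motif TTCNNNGAA, which reads the same on both strands. Of 3 start sites of Igfals in RefSeq, 2 had a match within 250 bases upstream, and 7.02% of the 32851 upstream windows of this length in RefSeq hold one. The 9 bases of the motif are in capitals, the first stretch at chr17:24877598-24877626 and the other at chr17:24878163-24878191.
Igfals, first start site: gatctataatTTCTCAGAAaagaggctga
Igfals, other start site: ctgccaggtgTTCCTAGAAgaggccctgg
The matches lie at bases -236 to -228 and -58 to -50 from their start sites. No other member window held this motif, and whether STAT5 binds at these letters was not measured.

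Igfbp1, a binding protein whose gene is induced by fasting and repressed by insulin, was bright in both livers and dim in marrow. At its 1 probe (chr11:7102442-7102501, plus strand) adult liver gave 13500 ± 1350, fetal liver 14900 ± 1490 and bone marrow 5.12 ± 5.10. The livers did not differ beyond their spot errors: adult liver was 1.18-fold higher, and fetal liver was the higher under quantile normalization and spike-in scaling. In marrow the probe was not well above background, and fetal liver stood at least 1457-fold and adult liver at least 1718-fold above it.

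Repression of Igfbp1 by insulin is known to run through FOXO factors at an insulin response element close to its start, so the letters CAAAACA were searched on both strands. Among 13 upstream windows of 9 of the 10 genes (all but Insr), Igfbp1 alone held them, and 5.56% of all windows did. Its window, the 250 bases before the start site in RefSeq at chr11:7197537-7197786 of build GRCm38.p6 on the plus strand, is shown because Igfbp1 was the binding protein high in both livers, with the motif in capitals.
Igfbp1 upstream: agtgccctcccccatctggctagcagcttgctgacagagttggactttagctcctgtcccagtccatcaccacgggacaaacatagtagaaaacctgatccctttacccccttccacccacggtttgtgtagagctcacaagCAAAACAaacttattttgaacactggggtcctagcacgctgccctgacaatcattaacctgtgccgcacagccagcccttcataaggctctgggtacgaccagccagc
The match lies at bases -108 to -102 from the start site. The related forkhead letters GTAAACA, found in 3.17% of windows, occurred at Igfals (bases -242 to -236, on the reverse strand) and in no other member window. The C/EBP letters TTNNGNAA, found in 36.8% of windows, occurred at Ghr, Igfals, Igfbp2 and Igfbp5. The long HNF1 palindrome was in 3 of all windows (0.00913%) and in no member window. A full match this rare cannot show whether the members have an HNF1 site, and looser forms were not searched. The upstream window of Igfbp1 had a GC content of 53.2% with 5 CpG dinucleotides, near the median of all windows (52.4% and 6), while that of its neighbour Igfbp3 had 73.2% with 32 and that of Igf1r had 77.6% with 42.

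Igfbp2, a binding protein found in fetal as well as adult plasma, had 1 probe (chr1:72898677-72898736, plus strand). It gave 9260 ± 926 in adult liver, 124 ± 12.9 in fetal and 66.8 ± 8.63 in marrow, well above background in all 3. Adult liver stood 97.2-fold above fetal liver and 418-fold above marrow. Fetal liver was 4.30-fold above marrow, a call that fell below 4-fold with quantile normalization, normexp correction and the authors' table and turned to marrow under spike-in scaling (-0.48 on the log2 scale).

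Igfbp3, which encodes the main carrier of IGF1 in plasma and in liver is known from non-parenchymal cells more than from hepatocytes, lies next to Igfbp1 on chromosome 11 on the opposite strand. No gene lies between them in the RefSeq table, and their nearest probes are 4092 bases apart. The brightest Igfbp3 probe (chr11:7106594-7106653, minus strand) gave 221 ± 22.5 in adult liver, 382 ± 38.3 in fetal and 91.6 ± 10.4 in marrow. At this probe the livers did not differ beyond the spot error, with fetal liver 1.33-fold higher. A dimmer probe (34.2 ± 5.41 and 22.3 ± 3.94) had adult liver 2.0-fold higher, beyond the spot error, so the order of the livers differed between the probes. At the brightest probe fetal liver was 9.66-fold and adult liver 7.28-fold above marrow. Under spike-in scaling these differences became 0.69 and -0.26 on the log2 scale, so that the one for adult liver changed sign. The dimmer probe was not well above background in marrow and gave bounds in the same directions (at least 2.18-fold and at least 4.35-fold), and a further probe was dim in all 3 tissues. Igfbp1 and Igfbp3 thus both had their lowest scaled level in marrow, for Igfbp3 except under spike-in scaling.

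Igfbp4, a binding protein that is cut by the protease PAPP-A, had 3240 ± 325 in adult liver, 695 ± 69.6 in fetal and 1380 ± 138 in marrow at chr11:98913334-98913393, plus strand. Adult liver was 6.07-fold above fetal liver and 7.08-fold above marrow, and the other probe (1220 ± 122, 173 ± 17.6 and 413 ± 41.6) gave 9.18-fold and 8.91-fold. Fetal liver and marrow differed by 1.17-fold, within the spot error, and the sign differed between the probes. Under spike-in scaling marrow was above both livers (adult liver minus marrow -0.30, fetal liver minus marrow -2.36 on the log2 scale).

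Igfbp5, known from bone and mesenchymal cells, lies next to Igfbp2 on chromosome 1 on the opposite strand, with no gene between them in the RefSeq table and their nearest probes 6092 bases apart. It gave 150 ± 15.6 in adult liver, 694 ± 69.5 in fetal and 3030 ± 303 in marrow at its brighter probe (chr1:72904829-72904888, minus strand). Marrow was 6.70-fold above adult liver and 1.88-fold above fetal liver, and fetal liver was 3.55-fold above adult liver. Under spike-in scaling the step from adult to fetal liver was past 4-fold (2.37 on the log2 scale), as was that between fetal liver and marrow (-3.50, fetal liver minus marrow). The dimmer probe was not well above background in adult liver, gave 66.2 ± 7.75 in fetal and 54.0 ± 8.27 in marrow, and put fetal liver 2.84-fold above marrow, so the order of those tissues differed between the probes. With the mean of both probes, the step from adult liver to marrow was under 4-fold (-1.26 on the log2 scale for adult liver minus marrow). The neighbours Igfbp2 and Igfbp5 were thus highest in different tissues, Igfbp2 in adult liver and Igfbp5, at its brighter probe, in marrow.

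Stellate, mesenchymal and endothelial markers differed among themselves between the livers. The 9 stellate and mesenchymal markers summed to 53.7 in adult liver, 61.8 in fetal liver (Lrat dim) and 9.16 in marrow (Des and Lrat dim), and 8 endothelial markers, all well above background in each tissue, summed to 51.3, 20.4 and 3.48. Dcn and Clec4g made up much of the adult liver sums. Dcn (4.90-fold) and Lrat (at least 29.1-fold) were higher in adult liver, Col1a1 (9.14-fold) in fetal liver, and the other 6 lay within 4-fold. Of the endothelial markers, Clec4g was 36.0-fold higher in adult and Lyve1 6.00-fold higher in fetal liver, with the other 6 within 4-fold. Markers of bone and marrow stroma were well above background for 2 of 7 genes in adult liver, 4 of 7 in fetal and 7 of 7 in marrow, with sums of 47.6, 10.6 and 43.2. Most of these sums was the signal of Cxcl12, and without it the other 6 summed to 4.46, 2.32 and 5.18. Nearly all of the 4.46 in adult liver was Alpl, which was 5.22-fold higher in adult liver than in marrow. Bglap, Ibsp, Lepr and Adipoq were at least 5.28-fold to at least 43.8-fold higher in marrow than in adult liver, and Sp7 gave no fold there. Ibsp, Sp7 and Adipoq were dim in both livers, and Bglap and Lepr in adult liver. Muscle markers, as a sign of tissue carried along, were 2, 2 and 4 of 5 with sums of 0.328, 0.336 and 1.58. Their part in the levels of Igfbp3, Igfbp4 and Igfbp5 was not tested.

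Igf1r, the receptor through which IGF1 and IGF2 act on cells, was lowest in adult liver. Its brightest probe (chr7:75376998-75377057, plus strand) gave 20.4 ± 4.35 in adult liver, 559 ± 56.0 in fetal and 1790 ± 179 in marrow, the adult value being close to the dimmest signal that passed as well above background there (18.9). Fetal liver was 21.0-fold and marrow 29.1-fold above adult liver. On the log2 scale, fetal minus adult liver was 4.40 as reported, 2.56 with the normexp correction and 3.32 with the authors' table, and adult liver minus marrow was -4.86, -3.06 and -3.82. Marrow was 1.38-fold above fetal liver. Fetal liver minus marrow was 0.47 with the mean of all probes and -3.05, past 4-fold, under spike-in scaling.

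The other 3 Igf1r probes also had more signal in fetal than in adult liver. A second probe gave 25.7 ± 4.99, 305 ± 30.7 and 1100 ± 110, with fetal liver 9.12-fold and marrow 14.2-fold above adult liver. At the remaining 2 probes the adult liver signal was not well above background, and fetal liver was at least 3.24-fold and at least 2.04-fold higher, which does not reach 4-fold. These 2 probes put fetal liver above marrow, by 1.65-fold and by at least 4.86-fold, and the others put marrow above fetal liver.

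Insr, the insulin receptor, was present in all 3 tissues at 154 ± 15.9 in adult liver, 59.7 ± 6.74 in fetal and 243 ± 24.7 in marrow (chr8:3151667-3151726, minus strand). Adult liver was 3.36-fold above fetal liver and 1.91-fold above marrow, and marrow was 1.76-fold above fetal liver, all under 4-fold. Under spike-in scaling marrow was more than 4-fold above both livers (-2.19 for adult liver minus marrow and -3.40 for fetal liver minus marrow, on the log2 scale). A further probe was dim in all 3 tissues. Of the receptors on this axis, Ghr and Igf1r thus differed in opposite directions between the livers, each read within its own probes, and Insr lay within 4-fold there.

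The rest of the pathway was read from 4 lists of 58 genes, 57 of them on the arrays (Irs2 was not found by name). Between fetal and adult liver 10 of 51 genes compared were called (19.6%, beside 26.2% of all genes), 4 higher in fetal and 6 in adult liver. Between fetal liver and marrow 10 of 53 were called (18.9%, beside 17.6%), 6 higher in fetal liver and 4 in marrow. Between adult liver and marrow 13 of 51 were called (25.5%, beside 33.8%), 7 higher in adult liver and 6 in marrow. All 10 calls between the livers kept their direction under each alternative that gave a value (7 for Foxo4 and 8 for the others), as did 9 of 10 and 9 of 13 of the calls against marrow. Under spike-in scaling the calls against marrow ran almost all to marrow, 38 of 41 for fetal liver and 38 of 39 for adult liver. Median log2 differences were -0.27, 0.06 and 0.30, beside 0.06, 0.26 and 0.09 over all genes. The share of genes called was thus near or below that of all genes in each comparison.

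**Figure D3:**
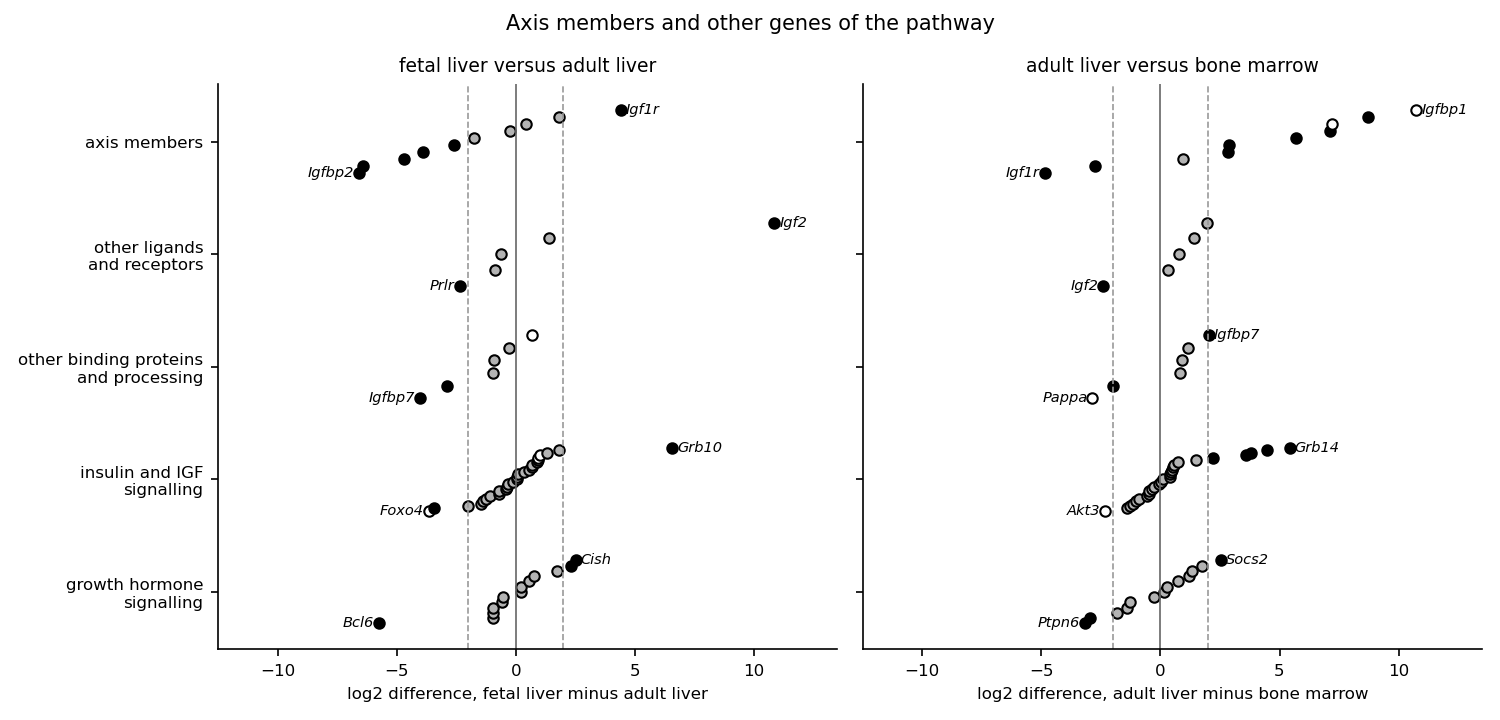
Log2 differences of the 10 axis genes and the 4 pathway lists, fetal minus adult liver on the left and adult liver minus bone marrow on the right, with dashed lines at 4-fold, black points past it, grey points within it and open points for lower bounds. Igf2 and Grb10 lie far to the fetal side on the left. Most signalling genes lie within 4-fold on both sides, as do most of all genes compared. On the right Igfbp7, Irs4 and Socs2 change sign under spike-in scaling and Ptpn6 with the mean of its probes.

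Among the other ligands and receptors, Igf2r, the receptor that clears IGF2, gave 1680 in adult liver, 5700 in fetal and 1940 in marrow. Fetal liver was 6.81-fold above marrow (0.18 on the log2 scale under spike-in scaling) and 2.61-fold above adult liver. Prlr, the prolactin receptor and a relative of the growth hormone receptor, gave 339, 85.8 and 262 and was 5.14-fold higher in adult than in fetal liver, past 4-fold at all 3 of its probes but not with spike-in scaling or the normexp correction. Gh and Insrr lay within 4-fold in all comparisons, and Ins2 was dim in all 3 tissues.

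Among the other binding proteins and the proteins that process them, Igfbp7, a low-affinity relative abundant in endothelium, gave 11700 in adult liver, 940 in fetal and 8500 in marrow. It was 16.2-fold higher in adult than in fetal liver, and 4.15-fold higher in adult liver than in marrow, a direction that spike-in scaling turned (-1.07 on the log2 scale). Htra1, a secreted protease that can cut IGF binding proteins, gave 747, 131 and 1190 and was 7.42-fold higher in adult than in fetal liver. Pappa, the gene of the IGFBP4 protease PAPP-A, was well above background in marrow alone (413), at least 11.6-fold above fetal liver and at least 7.24-fold above adult liver. These bounds were under 4-fold with the normexp correction and with the mean of both probes, and that against adult liver also with the authors' table. Esm1, an endothelial proteoglycan, gave 363, 247 and 4400 and was 7.69-fold higher in marrow than in fetal liver. Stc2, a stanniocalcin that inhibits PAPP-A, was well above background in fetal liver alone (39.4), at least 1.60-fold above adult liver and at least 3.85-fold above marrow.

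Among the genes of insulin and IGF signalling, 24 of 27 lay within 4-fold between the livers and 3 were called (11.1%, beside 26.2% of all genes). Foxo1 lay just within it, 3.98-fold higher in adult liver. Grb10, an adaptor that restrains both receptors and, like Igf2, is imprinted, gave 86.5 in adult liver, 10700 in fetal and 638 in marrow at 1 of its 3 probes. There fetal liver was 95-fold above adult liver and 38.9-fold above marrow. The other probes of Grb10 were dim in adult liver and marrow and gave lower bounds in the same direction. On the log2 scale these were 3.87 and 0.48 against adult liver and 5.14 and 1.74 against marrow. Grb14, a relative of Grb10, gave 2730, 333 and 191. It was 10.7-fold higher in adult than in fetal liver and 43.1-fold higher in adult liver than in marrow. The 2 adaptors thus lay on opposite sides between the livers. Irs1, a docking protein of both receptors, gave 1420, 679 and 194 and was 22.1-fold higher in adult liver than in marrow (1.34 on the log2 scale under spike-in scaling). Foxo4, a forkhead factor under AKT, gave 145 in adult liver and was at least 12.6-fold above fetal liver, where it was not well above background, a bound under 4-fold with the normexp correction. Pdpk1, the kinase that activates AKT, was 34.6-fold higher in fetal liver than in marrow at 1 of its 3 probes, and at the other 2 marrow was the higher, within 4-fold (-0.63 and -0.46 on the log2 scale, fetal liver minus marrow). Akt1, Akt2, Tsc2 and Eif4ebp1 lay within 4-fold in all comparisons.

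Among the genes of growth hormone signalling, the kinase gene Jak2 gave 125 in adult liver, 821 in fetal and 2890 in marrow, 5.05-fold and 7.66-fold above adult liver at 1 of its 2 probes. The other Jak2 probe was dim in all 3 tissues and gave no fold, and with the mean of the probes both steps were under 4-fold. Bcl6, a repressor that growth hormone lowers in liver, gave 11400, 274 and 10300, so that adult liver was 54.2-fold and marrow 16.2-fold above fetal liver. The inhibitors differed among themselves: Cish gave 419, 3130 and 3070 and was 5.74-fold above adult liver in fetal liver. Socs2 gave 306, 208 and 157 and was 5.88-fold higher in adult liver than in marrow, a direction turned by spike-in scaling (-0.57 on the log2 scale). Stat5a and Stat5b lay within 4-fold in all comparisons at the probes that stand for them. Another Stat5b probe put fetal and adult liver past 4-fold above marrow (2.44 and 3.37 on the log2 scale), and its remaining probe stayed within 4-fold. Ptpn6, a phosphatase of blood cells, was 9.09-fold higher in marrow than in adult liver at 1 probe and past 4-fold the other way at another, so no direction is given for it. Whether any of these RNA levels bear on the steps of Ghr, Igf1 and Igfals between the livers was not tested, and STAT5 activity was not measured.

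Genes with the pattern nearest to each of the 8 genes well above background everywhere were found among 11687 other such genes, as the smallest distance between the 3 scaled log2 levels after each gene was centred on its own mean. With 3 tissues many genes share a pattern, so these names are a description. Nearest to Igf1 were Cyp4v3, Slc10a1 and Kynu (distances of 0.205, 0.211 and 0.368), and nearest to Igfbp2 were Cyp2c70, Me1 and Ephx2 (0.014, 0.272 and 0.352). Both genes were highest in adult liver, as their neighbours must be by the way they were found. Igfbp3 lay nearest to Col4a1, Rab34 and Grik5 (0.053, 0.095 and 0.098), Igfbp4 to Mcfd2, Cemip and Rdh9 (0.035, 0.036 and 0.054), and Igfbp5 to Tuba3a, Tnnt1 and Tpm4 (0.051, 0.065 and 0.073). Igf1r lay nearest to Dyrk3, Stmn1 and Gins2 (0.115, 0.143 and 0.155), and Insr to Slc44a1, Mfsd1 and Scrt2 (0.028, 0.032 and 0.034). Distances were larger for Igf1 than for Insr, whose levels differed least between tissues.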

How the data were processed

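The 10 genes and all lists, and which erythroid markers were summed, were chosen with earlier results of these data known. Per the file headers, Agilent Feature Extraction 10.5.1.1 extracted the spots, and the processed signal intensity deposited for each spot is background-subtracted, detrended and not normalized between arrays. The authors also deposited a series table whose normalized ratio is the error of the processed signal over its 75th percentile (45018 of 45018 spots of each array within 1%), so it served as an alternative only. From the scanner files, log2 of the signal minus the array's 75th percentile over gene spots was computed in Python 3.11.15 (numpy 2.4.6, pandas 2.3.3), with no pseudocount. Control spots and 71 to 80 gene spots per array with an outlier flag were left out, and spots of 1 probe were averaged. Probes were named by accession (24842), symbol (6045) or older symbol (1796) through RefSeq, and 8489 stayed unnamed. A gene was represented by the probe well above background on most arrays, ties going to the brightest. All probes of the 10 genes, and of each pathway list every gene past 4-fold or the 5 widest, could be named. Stat5a, Stat5b, Akt1, Akt2, Tsc2, Eif4ebp1, Foxo1 and Ins2 were named outside this rule. Alternatives were median, quantile (limma 3.58.1, R 4.3.3) and spike-in scaling, normexp background correction with an offset of 50, the mean of probes, 2 other filters on dim probes and the authors' table. The procedure was tested on simulated data, with planted changes well past 4-fold and every probe counted as well above background. That simulation did not test lower bounds or differences near 4-fold. The number of arrays, 3, limits the precision. Part of the erythroid markers and the genes nearest to Ghr are not reported here.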

Additional observations from a re-analysis of the deposited data

How the results depend on the processing

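With 1 array per tissue, the 8 alternatives test the processing and not the animals. Of 235 values of the 10 genes under them, 225 kept the sign, and of 20 calls 17 kept the direction and 13 kept the call under each alternative that gave a value (8, except 7 for Igfbp1 against marrow, 7 for Igfals between adult liver and marrow and 6 for Igfals between fetal liver and marrow). All 6 calls between fetal and adult liver were kept under all 8. The calls turned under spike-in scaling were Igfbp2 between fetal liver and marrow (-0.48 on the log2 scale) and Igfbp3 and Igfbp4 between adult liver and marrow (-0.26 and -0.30). The 5 genes called between fetal liver and marrow, all higher in fetal liver, became 6 under spike-in scaling, with 1 higher in fetal liver and 5 in marrow. They became 3 with the normexp correction, 3 with the authors' table and 3 where both tissues had to be well above background, since Igfbp1 and Igfals are then not compared. In the pathway lists, the 10 calls between fetal liver and marrow became 41 under spike-in scaling (3 higher in fetal liver and 38 in marrow) and 6 with the mean of probes. The 13 between adult liver and marrow became 39 under spike-in scaling (1 higher in adult liver and 38 in marrow), 7 with the normexp correction and 8 with the mean of probes. The cause was not tested. Signal over background limits the marrow values of Igfbp1 and Igfals and the adult liver value of Igf1r. No paired analysis was possible because each tissue has 1 sample.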
